A study of Mus musculus with 7 samples.

Results

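The genes described here are 30 genes of the intrinsic and extrinsic apoptosis pathways: the BCL2 family, the caspases and the proteins that link them. They were taken from a fixed list of names, and their probes were found through the RefSeq transcript that each probe of the array carries. Probes were found for 29 of the 30 genes, 51 probes in all among the 56605 of the array, and 24 of these genes were among the 22060 genes that could be tested. Bcl2a1a had no probe of its own transcript and is not analysed here.

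The cells were MIN6, a mouse beta-cell line that makes insulin and was derived from an insulinoma of mice carrying a viral large T antigen as a transgene. They were treated for 3 days with Maidong polysaccharide extract (MPE, 4 arrays) or with phosphate-buffered saline as vehicle (3 arrays). The labels give 50 µg/mL as the highest culture dose but do not say which MPE concentration the array samples received. They are also silent on whether the samples of a group were separate cultures; if not, the p-values reflect technical spread alone. A single slide held the 7 arrays, with MPE in one row and vehicle in the other, so that treatment and slide row cannot be told apart.

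Between 27944 and 30122 probes per array were well above background, and the MPE arrays had the lower counts. The lowest log2 level that carried this flag was -4.16 to -4.11 on the MPE arrays, against -4.73 to -4.61 on the vehicle arrays. The flag is set per spot, so a spot above that level can still lack it. Here and throughout, a level is the log2 processed intensity minus the array's 75th percentile. Levels of different probes depend on the probe and are not compared with each other. All 8 beta-cell markers checked, among them Ins1, Ins2 and Pdx1, were well above background on every array. So were the 3 hormone genes of other islet cell types (Gcg, Sst and Ppy), while the 3 stromal markers were on none. Of the 3 immune markers Cd68 and Cd3e were also on every array and Ptprc on 1 vehicle array. The endothelial markers Pecam1 and Cdh5 were on 1 vehicle array and 1 MPE array. Of the exocrine and duct markers, Cpa1 was on no array, Krt19 on 1 MPE array and Cel, a lipase gene of acinar cells, on all. Cel had -1.07, -1.76, -3.67 and -2.43 with MPE, against -4.08, -3.86 and -3.63 with vehicle (difference 1.63, limma adjusted p = 1). The MPE arrays spread widely, and replicate 3 lay within the vehicle range. The part of these markers in the levels below was not tested. Arrays measure RNA per unit of RNA, so fewer cells of a type and less RNA per cell cannot be told apart.

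In apoptosis the guardians of the BCL2 family (such as Bcl2, Bcl2l1 and Mcl1) hold the pore formers Bax and Bak1 in check. BH3-only proteins sense stress and release or activate the pore formers, which then open the outer mitochondrial membrane. Cytochrome c leaves through the pores and joins Apaf1 to activate Casp9, which cuts the executioner caspases, while death receptors reach the same executioners through Fadd and Casp8. Beta cells are lost by this route in diabetes, and cytokines, lipids and ER stress are known to shift the balance of these genes in islets.

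No BCL2 family member, caspase or partner among the 24 tested genes passed the test for MPE against vehicle. All had an adjusted p of 1 in the limma fit (Benjamini-Hochberg over 22060 genes), which called 0.00453% of all genes in either direction. At an unadjusted limma p under 0.05 the count was also 0 of 24, against 4.11% of all genes (0.757% higher with MPE and 3.35% lower). That count depended on the setting. It was 3 with array weights (Apaf1 higher, Bad and Diablo lower) and 2 with normexp (Xiap higher, Casp6 lower). With the replicate block it was 2 (Casp6 and Diablo lower). Each setting also gave more of the 22060 genes at that p than the fit reported (167 higher, 740 lower). The counts were 382 higher and 1177 lower with array weights, 230 and 986 with normexp, and 412 and 1487 with the replicate block. The differences ran from -0.23 for Casp6 to 0.13 for Apaf1 on the log2 scale, with a median of -0.02, and the median over all genes tested was also -0.02. Lower values were found for 16 of the 24 genes and higher values for 8, which is a description of signs and not a set of calls. Of all 22060 genes 12731 were lower and 9329 higher. The number of the 24 genes that were higher was 2 with median scaling and 12 without vehicle replicate 2.

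**Figure D1:**
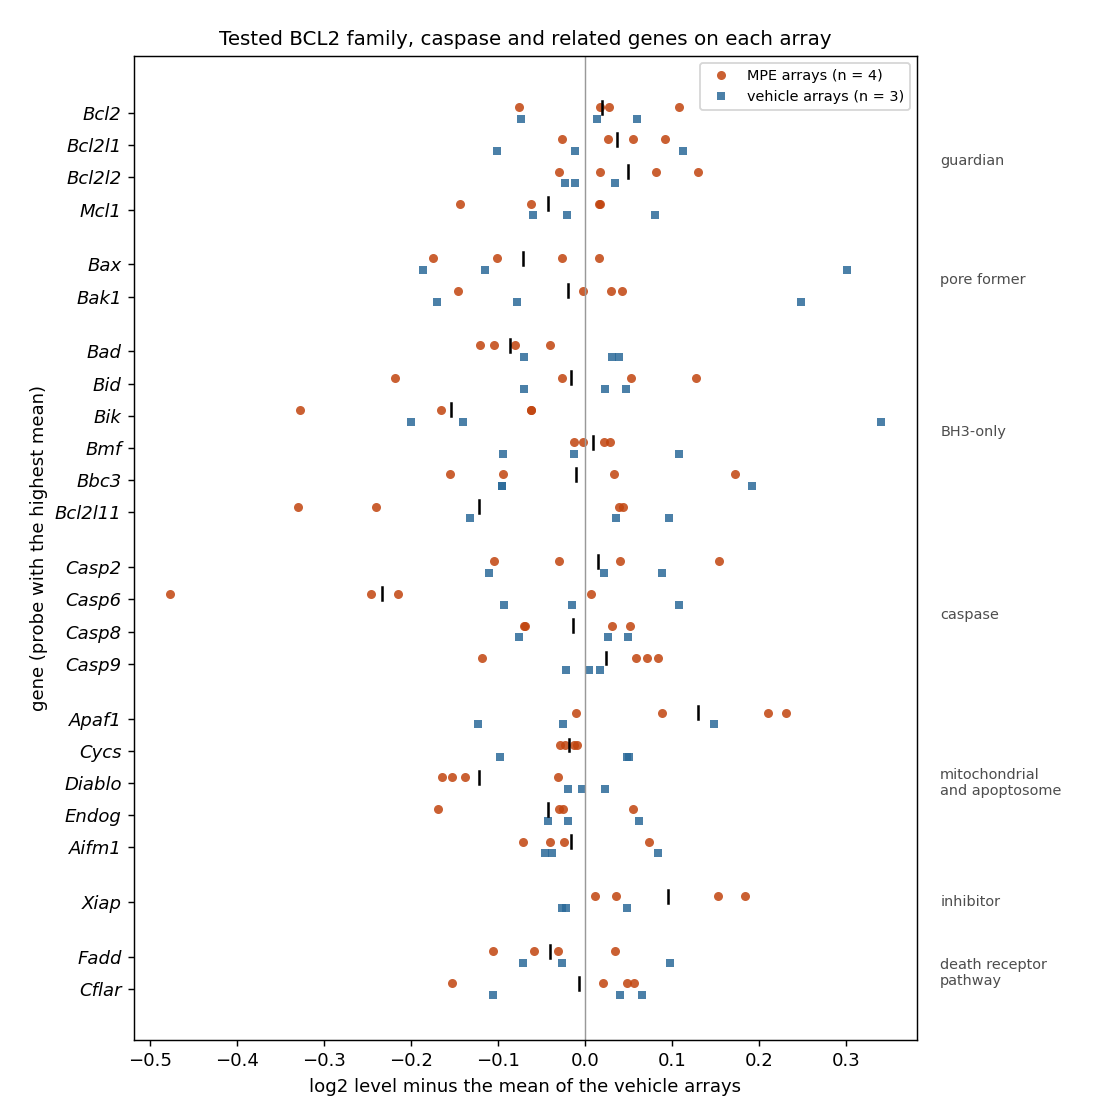
Each point is 1 array: the log2 level of a gene minus the mean of the 3 vehicle arrays, with MPE arrays as circles above the vehicle arrays as squares and the MPE mean as a bar. The groups overlap for every gene drawn except Diablo, and single vehicle arrays lie far to the right for Bax, Bak1 and Bik. For Bbc3 the highest vehicle array lies close to the highest MPE array.

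The arrays bounded these differences for the probe that stands for each gene. For all 24 genes that probe's 95% interval of the MPE to vehicle ratio lay within 1.5-fold in both directions. Over all genes tested this held for 80.7%. Within 2-fold the count was again 24 of 24, against 94.2% of all genes. The median half-width of the interval was 1.11-fold for the 24 genes and 1.16-fold for all genes, with a median residual SD of 0.08 and 0.12 on the log2 scale. The widest reach was that of Casp6, whose interval extended to a 1.42-fold lower level with MPE, and of Bik, which extended to 1.41-fold lower. Smaller changes than these bounds remain possible for each gene. The bounds do not cover other probes: the fourth Bcl2l1 probe had an interval of -0.91 to 0.38 on the log2 scale. If the samples of a group were not separate cultures, the intervals reflect technical spread alone.

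**Figure D2:**
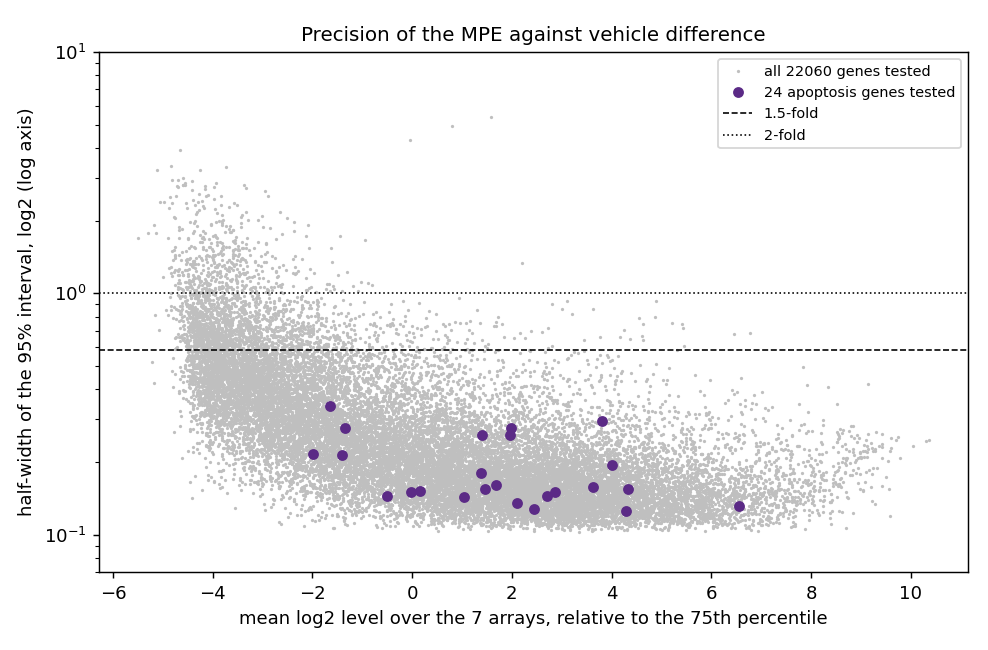
Each grey point is 1 of the 22060 genes tested and each dark point 1 of the 24 apoptosis genes; the x axis gives the mean log2 level over the 7 arrays and the y axis, which is logarithmic, the half-width of the 95% interval of the MPE minus vehicle difference. All 24 genes lie below the 1.5-fold line, and Bik and Bax have the widest intervals among them.

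Detection was counted by class, over few probes each, and was not tested. Of the 51 probes, 37 (72.5%) were well above background on all 7 arrays, against 57.7% of the 32994 probes on the array that carry a gene symbol. The pore formers (3 of 3 probes) and the guardians (8 of 9 probes) were measured on all arrays by nearly every probe. Caspases (4 of 7 probes), BH3-only genes (9 of 13) and the death receptor pathway (4 of 9) had the lowest shares. The caspase share of 57.1% was close to that of all probes with a symbol. At the level of genes, Hrk, Pmaip1, Casp12, Fas and Tnfrsf10b had no probe that was well above background on at least 3 arrays, so they were not tested.

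Promoter sequences are shown for 4 of these genes, a measured and an untested one rich in CG dinucleotides and a measured and an untested one poor in them, to set detection beside the sequence at the start of the gene. They are the RefSeq windows of build GRCm38.p6 that run from 250 bases before to 50 bases after the transcript start, each with 1 listed start, printed 5′ to 3′ with CG dinucleotides in capitals. Mcl1 (chr3:95658471-95658770, plus strand) and Casp8 (chr1:58802252-58802551, plus strand) were measured on all arrays, whereas Hrk (chr5:118169514-118169813, plus strand) and Casp12 (chr9:5345226-5345525, plus strand) were not tested.
Mcl1: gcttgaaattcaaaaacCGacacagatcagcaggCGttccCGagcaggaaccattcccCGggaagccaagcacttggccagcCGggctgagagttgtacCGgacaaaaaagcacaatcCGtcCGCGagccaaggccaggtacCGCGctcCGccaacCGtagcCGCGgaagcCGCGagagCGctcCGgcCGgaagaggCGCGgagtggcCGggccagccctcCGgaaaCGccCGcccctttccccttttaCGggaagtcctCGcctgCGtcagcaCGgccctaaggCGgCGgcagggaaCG
Casp8: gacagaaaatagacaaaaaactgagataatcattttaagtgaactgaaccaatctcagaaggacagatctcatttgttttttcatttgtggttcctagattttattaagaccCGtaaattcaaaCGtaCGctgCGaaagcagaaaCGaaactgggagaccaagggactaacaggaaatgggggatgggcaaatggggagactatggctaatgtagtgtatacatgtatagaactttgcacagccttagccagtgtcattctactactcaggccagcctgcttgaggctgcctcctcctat
Hrk: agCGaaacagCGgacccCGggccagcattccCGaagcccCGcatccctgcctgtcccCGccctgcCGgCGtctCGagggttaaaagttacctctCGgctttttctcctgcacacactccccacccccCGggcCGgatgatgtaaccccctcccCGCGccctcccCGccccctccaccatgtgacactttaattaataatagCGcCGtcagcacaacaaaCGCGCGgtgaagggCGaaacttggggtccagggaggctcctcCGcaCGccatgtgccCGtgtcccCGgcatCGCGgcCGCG
Casp12: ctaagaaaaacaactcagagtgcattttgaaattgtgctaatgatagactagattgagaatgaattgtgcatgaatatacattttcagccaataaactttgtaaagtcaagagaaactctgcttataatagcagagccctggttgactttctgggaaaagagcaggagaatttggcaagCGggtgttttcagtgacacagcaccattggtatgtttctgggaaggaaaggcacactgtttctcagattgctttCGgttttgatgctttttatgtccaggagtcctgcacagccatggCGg

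The motif searched was CG, which reads the same on both strands. It occurred 33 times in the Mcl1 window, a number that 8.56% of all windows reach, and 5 times in that of Casp8 (62.0%). In the untested genes it occurred 29 times for Hrk (12.9%) and 3 times for Casp12 (76.7%). These 4 windows were picked to hold this contrast on either side, so nothing about detection is read from their counts. Of the 32851 windows in the table, 94.6% held at least 1 CG and the median was 7. Among the 27 genes of the list with a window, the start with the most CG held a median of 22 for 23 tested genes and 8.5 for 4 untested ones (Hrk, Casp12, Fas and Bcl2a1a, the last of which has no probe). The 4 untested genes have 1 start each and some tested genes 2 or 3, while the median of 7 is over single windows. The medians are therefore not like measures, and these counts describe the letters of the windows only.

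Among the guardians, which bind and restrain the pore formers, all 4 genes with a probe were measured on every array and none passed the test. Bcl2, the founding member of the family, had levels of 0.08, 0.17, 0.26 and 0.18 on the MPE arrays, against 0.08, 0.21 and 0.17 on the vehicle arrays. The groups overlapped almost fully, and the MPE level was 1.01 times vehicle (95% interval 0.912 to 1.13). Bcl2l1, which encodes BCL-XL, the guardian most often tied to beta-cell survival, stood at 3.70, 3.63, 3.58 and 3.66 with MPE, against 3.51, 3.72 and 3.60 with vehicle. Its ratio was 1.03 (0.919 to 1.14), and the vehicle arrays spread further than the MPE arrays.

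Mcl1, a short-lived guardian whose loss is an early step in many forms of apoptosis, had 4.37, 4.37, 4.29 and 4.21 with MPE, against 4.43, 4.33 and 4.29 with vehicle. Its ratio of 0.971 (0.872 to 1.08) rested on overlapping groups. Bcl2l2, which encodes BCL-W, averaged 2.13 ± 0.07 on MPE arrays (SD, n = 4) and 2.08 ± 0.03 on vehicle arrays (SD, n = 3), a ratio of 1.04 (0.942 to 1.14).

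The 2 pore formers had a median residual SD of 0.17 on the log2 scale, against 0.07 for the guardians. The wider spread lay in the vehicle arrays, with an SD of 0.26 for Bax and 0.22 for Bak1. On the MPE arrays the SDs were 0.08 and 0.09. Bax, which moves to mitochondria on activation, had 3.68, 3.87, 3.76 and 3.83 on the MPE arrays, against 4.16, 3.74 and 3.67 on the vehicle arrays. Its second probe gave 1.67, 1.88, 1.88 and 2.00 with MPE, against 2.05, 1.69 and 1.88 with vehicle. Vehicle replicate 1 was the highest array for both probes.

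Bak1, which already sits in the mitochondrial membrane, had 1.41, 1.46, 1.27 and 1.44 with MPE, against 1.66, 1.34 and 1.24 with vehicle, and vehicle replicate 1 was again the highest. The ratios were 0.951 (0.776 to 1.17) for Bax and 0.987 (0.824 to 1.18) for Bak1. Without vehicle replicate 1 the differences turned to 0.08 for Bax and 0.11 for Bak1 on the log2 scale, and neither passed.

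The level of Bcl2 minus that of Bax within an array is a common readout of the balance between guardian and pore former, and only its change between groups can be read here. It was -3.60, -3.70, -3.50 and -3.65 with MPE, against -4.08, -3.53 and -3.50 with vehicle, all on the log2 scale. It averaged -3.61 ± 0.09 on the MPE arrays (SD, n = 4) and -3.70 ± 0.32 on the vehicle arrays (SD, n = 3). The difference of 0.09 was smaller than the spread between the vehicle arrays, where replicate 1 stood lowest. It became -0.10 without that array, and with all arrays kept it was -0.01 with normexp background correction.

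Of the 8 BH3-only genes 6 were tested, and none passed. Bbc3 (Puma), a p53 target that engages every guardian, had 2.00, 2.14, 1.88 and 1.81 with MPE, against 2.16, 1.87 and 1.87 with vehicle. Vehicle replicate 1 was the highest vehicle array here too. The difference was -0.01 on the log2 scale (95% interval -0.27 to 0.25), and without that array it was 0.08.

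Bcl2l11 (Bim), an activator of the pore formers that ER stress can induce, had 2.10, 2.10, 1.73 and 1.82 with MPE, against 2.15, 2.09 and 1.93 with vehicle. MPE replicates 3 and 4 lay below all vehicle arrays and replicates 1 and 2 among them. Its 4 probes gave differences of -0.12, -0.06, -0.09 and -0.07 on the log2 scale, each with an interval that included 0.

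Bik, which acts at the ER, had -1.62, -1.89, -1.62 and -1.73 with MPE, against -1.76, -1.22 and -1.70 with vehicle. Vehicle replicate 2 stood apart from the other 6 arrays, and without it the difference of -0.15 on the log2 scale became 0.02. Bad, which is held inactive by phosphorylation under insulin and growth factor signalling, averaged 4.24 ± 0.03 on MPE arrays (SD, n = 4) and 4.33 ± 0.06 on vehicle arrays (SD, n = 3). Its ratio was 0.942 (0.863 to 1.03). Bid, which Casp8 cuts to link death receptors to mitochondria, and Bmf, known from its tie to the cytoskeleton, had ratios of 0.989 (0.853 to 1.15) and 1.01 (0.910 to 1.11).

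The caspases, the proteases that carry out apoptosis, included the gene with the largest measured difference. Casp6, an executioner, had -1.20, -1.43, -1.46 and -1.69 on the MPE arrays, against -1.10, -1.23 and -1.30 on the vehicle arrays. MPE replicate 1 lay within the vehicle range and the other 3 MPE arrays below it. The difference was -0.23 on the log2 scale (SE 0.12), a ratio of 0.851 (0.702 to 1.03), with an unadjusted limma p of 0.0867. It was negative in all 19 alternative settings tried, from -0.31 to -0.15, and never passed the adjusted threshold. The lowest limma adjusted p was 0.312 with no filter on dim probes and 0.56 in the other settings.

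Casp8, the initiator at death receptors, had 1.08, 1.10, 0.98 and 0.98 with MPE, against 1.07, 1.10 and 0.97 with vehicle. The 2 sets of values spanned nearly the same range, and the ratio was 0.990 (0.896 to 1.09). Casp9, the initiator of the mitochondrial route, had 1.53, 1.51, 1.54 and 1.34 with MPE, against 1.47, 1.43 and 1.46 with vehicle. MPE replicate 4 was below, and the other 3 MPE arrays above, all vehicle arrays, and the ratio was 1.02 (0.913 to 1.13). Casp2, an initiator linked to DNA damage, averaged 4.02 ± 0.11 on MPE arrays (SD, n = 4) and 4.01 ± 0.10 on vehicle arrays (SD, n = 3).

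**Figure D3:**
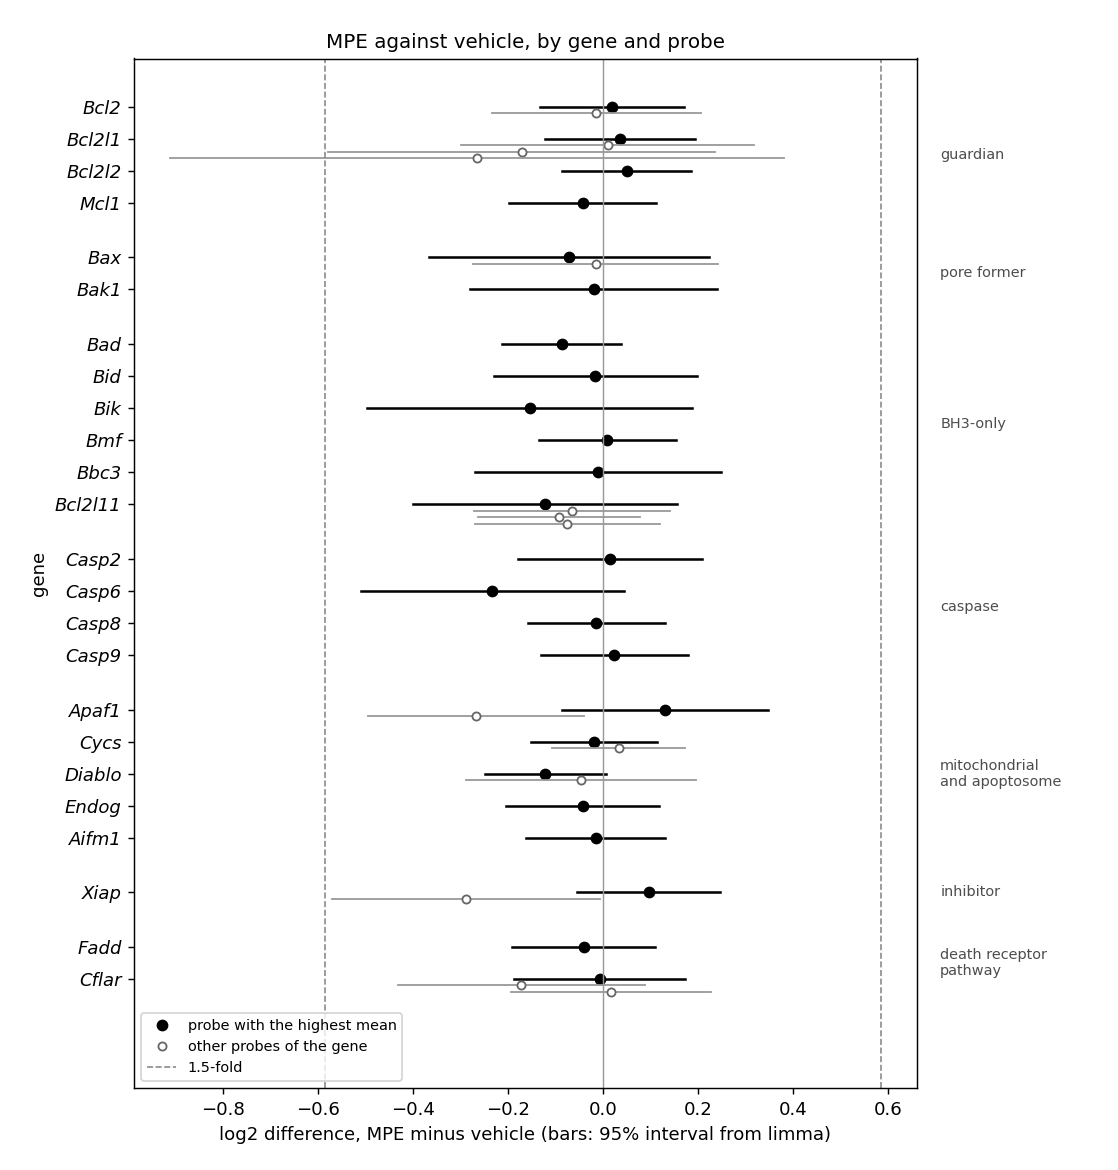
Filled points show the log2 difference, MPE minus vehicle, of each gene's probe with the highest mean, open points its other probes that passed the filter, and bars the 95% intervals from limma, with dashed lines at 1.5-fold. All filled intervals include 0 and lie between the dashed lines. As drawn, 2 open intervals, of Apaf1 and Xiap, lie below 0. The open Apaf1 probe was kept through the vehicle arrays alone, so nothing is read from it.

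Diablo was the only 1 of the 24 genes whose groups did not overlap, with MPE lower. Groups did not overlap for 4.53% of all genes tested, and for 3.36% with MPE lower. It encodes the mitochondrial protein SMAC, which frees caspases from Xiap. Its levels were 2.39, 2.36, 2.37 and 2.49 with MPE, against 2.50, 2.55 and 2.52 with vehicle. The array values were close, and the share of 4.17% among the 24 genes is near the background. The difference was -0.12 on the log2 scale (SE 0.05), a ratio of 0.919 (0.842 to 1.00), with an unadjusted limma p of 0.0583. Its other probe had -1.83, -1.90, -1.82 and -2.04 with MPE, against -1.97, -1.63 and -1.94 with vehicle, where the groups did overlap.

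Cytochrome c is the electron carrier that triggers the apoptosome once it is released. Its gene, Cycs, had 6.56, 6.54, 6.54 and 6.56 with MPE, against 6.47, 6.62 and 6.62 with vehicle. The 4 MPE arrays were nearly equal and lay inside the vehicle range, and the ratio was 0.987 (0.901 to 1.08). Processed copies of Cycs are common in mammalian genomes, so its signal may include such copies. The nuclease gene Endog and the flavoprotein gene Aifm1, whose products act without caspases, had ratios of 0.971 (0.869 to 1.09) and 0.989 (0.894 to 1.09).

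Apaf1, the scaffold of the apoptosome, had -1.84, -1.82, -1.97 and -2.07 with MPE, against -2.08, -2.18 and -1.91 with vehicle. The groups overlapped, and the ratio was 1.09 (0.942 to 1.27). Its second probe had -4.09, -3.97, -3.89 and -3.86 with MPE, against -3.60, -3.58 and -3.88 with vehicle. This probe was well above background on all 3 vehicle arrays and on no MPE array, so it entered the test through the vehicle arrays alone. For that reason no fold or p is drawn from it.

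Xiap, which encodes the inhibitor of Casp9 and of the executioner caspases, had 2.82, 2.96, 2.99 and 2.84 with MPE, against 2.78, 2.79 and 2.85 with vehicle. MPE replicates 2 and 3 were above all vehicle arrays, and the ratio was 1.07 (0.963 to 1.19). Its second probe had -3.48, -3.13, -3.20 and -3.34 with MPE, against -2.83, -2.96 and -3.20 with vehicle. That probe gave a difference of -0.29 on the log2 scale (95% interval -0.57 to -0.01), with an unadjusted p of 0.046 and an adjusted p of 1 in a limma fit over the 28874 probes that passed the filter. The 2 probes differ in sign, and the mean over both gave -0.10.

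Among all 28874 probes, 3.34% were lower, 0.81% higher and 4.15% either at an unadjusted p under 0.05. Of the 38 probes of these genes, those of Apaf1 and Xiap just described were lower and no probe was higher. Since the Apaf1 probe was kept through the vehicle arrays, nothing is read from this count. By the adjusted p of that limma fit 0 of the 38 probes were called, against 0.0104% of all probes. Only the Diablo probe described above had groups that did not overlap (2.63%, against 4.64% of all probes). Of the 9 genes with several passing probes, 6 had probes of both signs, Apaf1 among them only through the probe kept by the vehicle arrays. Apaf1 aside, the largest gaps between probes of a gene were 0.38 for Xiap and 0.30 for Bcl2l1 on the log2 scale. The fourth Bcl2l1 probe had -2.82, -3.19, -3.76 and -3.66 with MPE, against -2.69, -3.13 and -3.45 with vehicle, so both groups spread over more than their difference of -0.27. The part of background in these probes was not tested.

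In the death receptor pathway the adaptor Fadd and the Casp8 regulator Cflar were measured and the receptors were not. Fadd, which couples the receptors to Casp8, averaged -0.04 ± 0.06 on MPE arrays (SD, n = 4) and -0.00 ± 0.09 on vehicle arrays (SD, n = 3), a ratio of 0.972 (0.876 to 1.08). Cflar, which encodes the Casp8 decoy FLIP, had a ratio of 0.995 (0.878 to 1.13). Its 3 passing probes gave differences of -0.01, -0.17 and 0.02 on the log2 scale.

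Fas, the receptor through which cytotoxic T cells kill beta cells, was at the floor of every array. Its 2 probes lay between -6.33 and -6.27 on the MPE arrays, against -6.90 to -6.71 on the vehicle arrays. Pmaip1 (Noxa), a BH3-only p53 target, likewise lay between -6.46 and -6.41 with MPE, against -7.04 to -6.91 with vehicle. None of these probes was well above background on any array, and the lowest signal of any probe lay between -6.49 and -6.43 on MPE arrays, against -7.07 to -6.95 on vehicle arrays. Fas and Pmaip1 therefore followed the floor of the array, which was itself higher with MPE. With no filter on dim probes they were called higher with MPE (limma adjusted p = 0.000399 and 0.000398), as were 21.2% of all 45478 genes (0.767% were called lower), and no fold change is given for them.

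**Figure D4:**
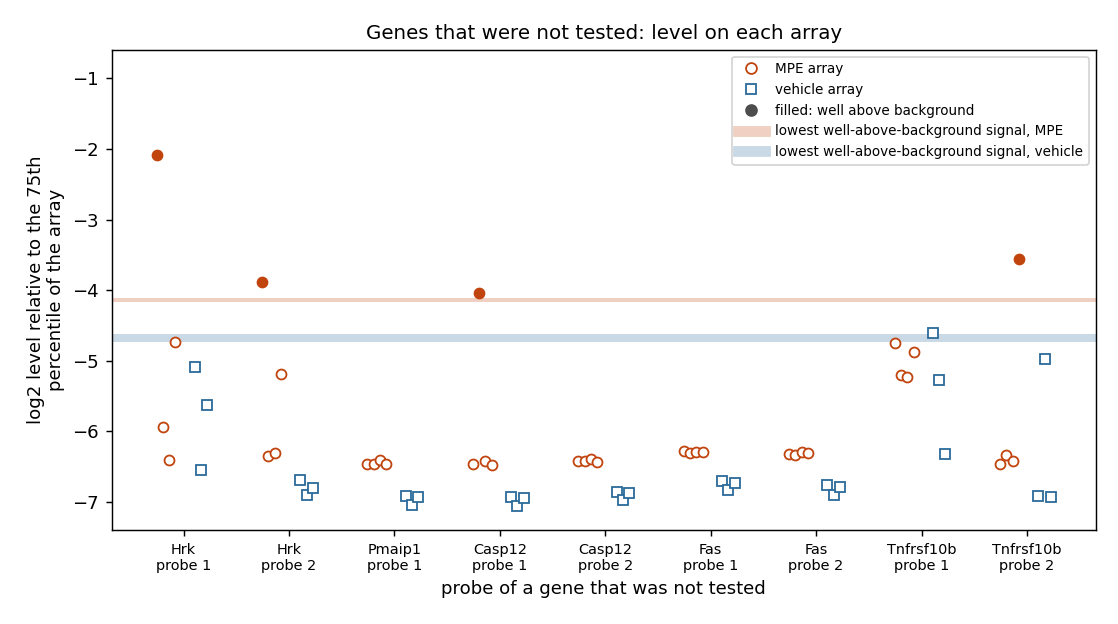
Each point is the log2 level of 1 probe on 1 array, MPE arrays as circles to the left of the vehicle arrays as squares, filled where the spot was well above background; bands span, over the arrays of each group, the lowest level that carried the well-above-background flag, which is not a cut. Only 4 points are filled, all on MPE arrays: both Hrk probes on replicate 1, 1 Casp12 probe on replicate 2 and 1 Tnfrsf10b probe on replicate 4.

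Hrk, a BH3-only gene best known from neurons deprived of growth factor, was the only untested gene with 2 probes above background on the same array. Its first probe had -2.09, -5.94, -6.41 and -4.74 with MPE, against -5.09, -6.55 and -5.63 with vehicle. The other probe had -3.88, -6.34, -6.30 and -5.18 with MPE, against -6.69, -6.90 and -6.80 with vehicle. MPE replicate 1 was the highest array for both probes and MPE replicate 4 the next.

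Casp12, a caspase of the ER in rodents, had -6.47, -4.04, -6.42 and -6.47 with MPE, against -6.92, -7.05 and -6.94 with vehicle. Only MPE replicate 2 was well above background. Its second probe lay at the floor, between -6.43 and -6.39 with MPE, against -6.98 to -6.85 with vehicle. Tnfrsf10b, the mouse TRAIL receptor, had -6.46, -6.33, -6.41 and -3.56 with MPE, against -6.91, -4.97 and -6.93 with vehicle. Only MPE replicate 4 was well above background, and its other probe was so on no array.

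Single probes of genes measured by another probe were also near the limit. The second Casp9 probe was well above background on 0 MPE and 2 vehicle arrays, the second Bmf probe on 0 MPE and 1 vehicle array, and the fifth Bcl2l1 probe on 1 MPE and 1 vehicle array.

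Of 308 negative-control spots, between 4 and 9 were well above background per MPE array, against 0 to 5 per vehicle array. Isolated bright probes, at least 8-fold above the mean of their 3 lowest arrays, numbered 533 to 702 per MPE array, against 93 to 181 per vehicle array. Within 8 spot rows of the first Hrk probe they made up 2.81% of probes on MPE replicate 1 and 1.03% to 1.82% on the other MPE arrays, against 0% to 0.28% on the vehicle arrays. Around the other Hrk probe the share was 1.70% on MPE replicate 1 and 1.43% to 2.02% on the other MPE arrays, against 0.04% to 0.12% on the vehicle arrays. Around that Casp12 probe the share was 0.56% on MPE replicate 2 and 0.2% to 1% on the other MPE arrays. The vehicle arrays had 0% to 0.16% there. Around that Tnfrsf10b probe it was 0.84% on MPE replicate 4 and 0.16% to 0.56% on the other MPE arrays. The vehicle arrays had 0% to 0.2% there. By the 8-fold rule the first Hrk probe and that Tnfrsf10b probe were themselves isolated bright probes on these arrays. The other Hrk probe and that Casp12 probe were not. The part of isolated bright probes in the Hrk, Casp12 and Tnfrsf10b signals was not tested.

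Other genes of the pathway were described from a list of 50 names, of which 45 were tested. None passed the adjusted or the unadjusted threshold, which 0.00453% and 4.11% of all genes passed. Lower values were found for 25 and higher values for 20, with a median of -0.01 on the log2 scale. Of all 22060 genes 12731 were lower and 9329 higher, with a median of -0.02.

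The p53 gene Trp53 had a ratio of 0.984 (0.854 to 1.13), and its targets Cdkn1a and Mdm2 had ratios of 0.950 (0.819 to 1.10) and 1.02 (0.926 to 1.13). Birc5, an inhibitor of apoptosis protein of dividing cells, had a ratio of 1.00 (0.904 to 1.11). The kinase gene Ripk1, which can direct cells to apoptosis or necroptosis, stood at 1.02 (0.930 to 1.13). Ddit3 (CHOP), the ER stress factor upstream of Bcl2l11 and Tnfrsf10b, stood at 1.06 (0.866 to 1.30).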

How the data were processed

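Per the labels' protocols, 100 ng of RNA from each of 7 MIN6 samples was Cy3-labelled for Agilent mouse arrays in 1 colour. The deposited intensity values come from Agilent Feature Extraction, version 11.5.1.1 per the file headers and 10.5.1.1 per the submitters' processing notes. Per the file headers, the processed intensity was background-subtracted and detrended within the array. The authors' value table holds log2 values with the same median of 4.438 in every column, made with a tool that the sources used here do not name.

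Spots of type control and 611 values that carried an outlier flag were dropped, and there were no saturated spots. Levels are log2 processed intensity, averaged over spots, minus the array's 75th percentile. The filter required a probe to be well above background, by the deposited flag, on 3 or more arrays (28874 probes). Symbols came from the RefSeq table of GRCm38.p6 by accession (32994 of 56605 probes). A gene was represented by its probe with the highest mean (22060 genes). MPE was compared with vehicle in limma 3.58.1 (R 4.3.3) by a model with no other covariate, and p-values were adjusted by Benjamini-Hochberg over all genes, with a threshold of 0.05. Probes were fitted likewise in a second model. The fit was tested on simulated data. All genes of the apoptosis list are named. Of the 50 further genes, a few are named whatever their result, and any other would be named for passing the test; some of these are not reported here. Members and lists were chosen with earlier results of these data known. Same-numbered arrays deviated together at correlations of 0.247, 0.051 and 0.413, but arrays of different number did so too. Replicates 1 and 2 of MPE correlated with replicates 1 and 2 of vehicle at 0.051 to 0.306. Vehicle replicate 3 correlated with MPE replicates 3 and 4 at 0.413 and 0.172. All other pairs were negative, from -0.334 to -0.011. The numbers were not taken as pairs, and the fit reported has no term for this grouping. Its part in the differences was not tested. The number of arrays limits the precision. The alternatives were other scalings, normexp with an offset of 50 on median spot and background intensity (the mean spot intensity was not used here), the authors' table, other filters and probe rules, other variance models, blocks and arrays left out.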

Additional observations from a re-analysis of the deposited data

Results flagged for a closer look

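MPE replicate 4 stood apart from the other MPE arrays for Casp9, at 1.34 against 1.51 to 1.54, by a test for a single outlying array. It was the only one of 38 probes checked in this way, and chance flags about 1 in 20 groups.

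Signal above background appeared on single MPE arrays, and on no vehicle array, for probes that were not tested. These were both probes of Hrk on MPE replicate 1, at -2.09 and -3.88, the probe of Casp12 on MPE replicate 2 at -4.04, and the probe of Tnfrsf10b on MPE replicate 4 at -3.56. All of them lie in the spot rows that held most isolated bright probes of the MPE arrays, and the part of those was not tested. The second probes of Casp12 and Tnfrsf10b were not well above background on those arrays.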

How the results depend on the processing

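None of the 24 genes passed the adjusted limma threshold in any of 19 alternative settings. The lowest adjusted p was 0.174 (Diablo), with no filter, where 9968 genes were called. In the other settings the lowest was 0.554 (Diablo, with the replicate block). With no filter 2 other genes (Fas and Pmaip1) and 1 gene of the wider list (Ripk3) were called, all of them below background in both groups. Diablo, Casp6, Bad and Bcl2l11 kept one sign in all 19 settings, and 58 of 456 values of the 24 genes changed sign, none of them above 0.105 in size. Median scaling, which put the median of all genes at -0.09, gave -0.0506 for Bcl2, -0.0335 for Bcl2l1, -0.02 for Bcl2l2, -0.0611 for Bmf, -0.0551 for Casp2 and -0.046 for Casp9. Quantile normalization gave 0.0184 for Cycs and 0.0044 for Cflar. Normexp gave -0.0397 for Bcl2, 0.0007 for Mcl1, -0.0065 for Casp9, 0.0386 for Cycs and 0.0037 for Endog. The authors' value table gave 0.0189 for Cycs and 0.0042 for Cflar. The mean over probes gave -0.0976 for Bcl2l1, -0.0688 for Apaf1, 0.0071 for Cycs and -0.0962 for Xiap. The Apaf1 mean includes the probe kept through the vehicle arrays alone, so nothing is read from it. Array weighting gave -0.0244 for Bcl2, 0.017 for Bak1, 0.0561 for Bid, 0.0587 for Bbc3 and -0.0255 for Casp2. The replicate block, to which MPE replicate 4 adds nothing since it has no partner, gave 0.037 for Bbc3 and 0.0047 for Casp8. The slide column block, to which MPE replicate 3 adds nothing for the same reason, gave -0.0104 for Bcl2, 0.023 for Bak1, 0.051 for Bid, 0.0168 for Bbc3, -0.0319 for Casp2 and 0.004 for Casp8. The replicate block changed no call of the 24 genes, took the count over all genes to 0 against 1 without it, and same-numbered arrays did not all correlate best with each other. With 1 array left out, the differences that changed sign ranged over -0.0175 to 0.0508 for Bcl2, -0.0141 to 0.0926 for Bcl2l1, -0.165 to 0.0787 for Bax, -0.104 to 0.105 for Bak1, -0.0641 to 0.051 for Bid, -0.254 to 0.0157 for Bik, -0.0384 to 0.0624 for Bmf, -0.0721 to 0.0848 for Bbc3, -0.0403 to 0.0586 for Casp2, -0.0519 to 0.0105 for Casp8, -0.0676 to 0.0066 for Cycs, -0.0455 to 0.0261 for Aifm1, -0.0762 to 0.0083 for Fadd, -0.06 to 0.0416 for Cflar. Without vehicle replicate 1 these turned for Bcl2, Bcl2l1, Bax, Bak1, Bid, Bbc3 and Casp2. The cause of these turns was not tested.

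The median of the wider list was -0.0056, against -0.0754 with median scaling, -0.0265 in the authors' table, 0.0134 with the replicate block and -0.0116 to 0.0134 with 1 array left out. Over all genes, limma called 1, against 0 with normexp, 0 with the filter on all 7 arrays, 0 with the slide column block, 3 with a trended robust variance, 4 with array weights and 9968 with no filter. With 1 array left out it called 0 to 4, namely 0 without vehicle replicate 1 or 3, 2 without vehicle replicate 2, 3 without MPE replicate 1, 2 or 3 and 4 without MPE replicate 4. At an unadjusted p under 0.05, 167 genes were higher with MPE and 740 lower, against 67 and 1328 with median scaling, 11087 and 1184 with no filter, 382 and 1177 with array weights and 412 and 1487 with the replicate block. They were 230 and 986 with normexp, 145 and 554 with the trended variance and 279 and 919 with the slide column block. Without MPE replicate 1 they were 239 and 724, and without MPE replicate 4 they were 253 and 882. Of the 24 genes, the count at that p was 0 in the fit reported, 3 with array weights, 2 with normexp, 2 with the replicate block, 1 (Diablo) with median scaling, with no filter, with the trended variance or without MPE replicate 4, and 1 (Casp6) with the slide column block or without MPE replicate 1. Intervals within 1.5-fold held for 22 to 24 of the 24 genes in all settings. Signal near background limits the dim probes.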
